A study of Mus musculus with 7 samples.

Results

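The genes described here are 10 heat shock proteins and small chaperones, measured in mouse spleen after injection of lipopolysaccharide (LPS). They were chosen by name, with the expression values of these same libraries already known, and all 10 were found among the 17920 genes listed. Their differences between groups are therefore given as a description, with no p-value for any of them. The set covers the HSP70 system (Hspa1a, Hspa1b, Hspa8, the HSP110 gene Hsph1 and the J-domain gene Dnajb1), the cytosolic HSP90 gene Hsp90aa1, the mitochondrial chaperonin pair Hspd1 and Hspe1, and the small heat shock proteins Hspb1 and Cryab.

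Chaperones bind unfolded protein and keep it from aggregating until it can fold. HSP70 does so in cycles of ATP hydrolysis that J-domain proteins start and HSP110 proteins reset, HSP90 acts later on clients such as kinases and receptors, HSP60 and HSP10 (Hspd1 and Hspe1) form a folding chamber in mitochondria, and small heat shock proteins hold clients without ATP. Stress-inducible members are transcribed through heat shock elements, inverted repeats of nGAAn that bind the transcription factor HSF1, whereas constitutive members such as Hspa8 are abundant without stress.

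The series addressed what the loss of GdX does to gene expression in the spleen after LPS. GdX (UBL4A), the product of the X-linked gene Ubl4a, is a ubiquitin-like protein that works with chaperones to deliver tail-anchored membrane proteins. The mice were of strain C57BL/6 and 8 weeks old, either wild type or GdX-/-, which the treatment protocol writes as GdX-/Y. Every mouse of every group received 20 mg/kg LPS intraperitoneally, and the spleen was collected 90 min or 6 h later. At 90 min each genotype had 2 libraries, and at 6 h wild type had 2 and GdX-/- had 1. By the design text each library stands for 1 mouse. How the GdX allele was made is not given in the sources used here, and no spleen without LPS was analysed here, so no level can be set against a resting one. The labels name the source as splenocytes, whereas the extraction protocol describes a crushed spleen, so which cells other than splenocytes were present is not settled by them. In bulk RNA fewer cells of a type and less RNA per cell cannot be told apart.

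The promoters of 7 of the 10 genes were found in the RefSeq promoter table (GRCm38.p6), and 4 places are printed because they hold heat shock element letters upstream of genes whose levels differed at least 2-fold between groups. A 2-unit heat shock element was searched as GAANNTTC or TTCNNGAA, and a 3-unit element as the first of these followed by NNGAA or the second followed by NNTTC, in the 250 bases upstream of each start site. These letters were searched on both strands, and every 3-unit match also holds 2-unit matches. Hspe1 and Hspd1 are transcribed away from each other on chromosome 1, and the annotated start of Hspe1 lies 216 bases from the lower start of Hspd1. The stretch between them, chr1:55088053-55088082 on the plus strand, holds 2 overlapping 3-unit elements, shown in capitals, and overlaps the first exon of an Hspd1 transcript that starts further up.
Hspe1-Hspd1: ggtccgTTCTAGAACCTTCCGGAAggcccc
This run of elements begins 89 and ends 72 bases upstream of the Hspe1 start, and 144 to 127 bases upstream of the lower Hspd1 start. A 3-unit element was present upstream of 139 of the 27025 genes in the table (0.514%), and a 2-unit element upstream of 3932 (14.6%). Hspe1 and Hspd1 were the only ones of the 7 genes with a 3-unit match.

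Hspa1a and Hspa1b lie side by side on chromosome 17, on the minus strand, with starts 12918 bases apart. Their 140 bases upstream of the start, chr17:34972157-34972296 for Hspa1a and chr17:34959239-34959378 for Hspa1b, are shown as read on the minus strand, with the 2-unit match in capitals.
Hspa1a: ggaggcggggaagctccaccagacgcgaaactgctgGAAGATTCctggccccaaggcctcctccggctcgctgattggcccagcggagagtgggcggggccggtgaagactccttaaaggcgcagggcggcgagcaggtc
Hspa1b: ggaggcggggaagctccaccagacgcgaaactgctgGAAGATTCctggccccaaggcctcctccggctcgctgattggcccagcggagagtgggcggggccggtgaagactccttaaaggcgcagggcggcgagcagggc
Over 250 bases the upstream sequences of the pair were 98.8% identical, with 3 mismatches, and the same 2-unit match lay 104 to 97 bases upstream of each start. Their transcripts were 93.6% identical over the aligned bases, with an identical run of 638 bases, against 73.9% for each of them with Hspa8. How fragments were divided between the pair is therefore uncertain, and their sum is given beside each gene.

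The upstream 140 bases of Hspb1, chr5:135887779-135887918 on the plus strand, hold 2-unit matches at 117 to 110 and at 97 to 90 bases from the start, in capitals.
Hspb1: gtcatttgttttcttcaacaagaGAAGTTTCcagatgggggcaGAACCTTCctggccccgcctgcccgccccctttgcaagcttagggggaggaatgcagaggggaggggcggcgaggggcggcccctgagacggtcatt
Hsph1 had a 2-unit match that lies 33 to 26 bases upstream of 1 of its starts and 54 to 47 bases upstream of the other, and the windows of Dnajb1 held neither form. A match of letters is not a measured binding site, and none of these libraries measured binding.

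Depth was close to equal, at an estimated 19200000 to 21300000 mapped fragments per library. Globin genes took from 7.73% to 30.9% of the summed values. Replicates differed at least 2-fold for 140 genes in wild type at 90 min, 674 in GdX-deficient spleen at 90 min and 997 in wild type at 6 h, of 11378 genes. The summed level of Ubl4a and Gm44504, an entry that overlaps it, was 5.04 to 11.2 FPKM in the GdX-deficient and 21.02 to 62.98 FPKM in the wild-type libraries, in the direction of the labels. Ubl4a alone overlapped between the genotypes at 90 min, at 4.03 and 5.69 against 5.62 and 7.50 FPKM, and at 6 h was at 10.56 against 11.88 and 14.01 FPKM, so the direction of the sum rests mostly on Gm44504. Markers of spleen cells were present in every library. FPKM, a fragment count divided by transcript length and by depth, is a level per length, so genes can be set beside each other roughly. Replicate differences still followed transcript length, with Spearman coefficients of -0.446 in wild type at 90 min, -0.591 in wild type at 6 h and -0.166 in GdX-deficient spleen at 90 min. Ratios between genes of unlike length are therefore uncertain.

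**Figure D1:**
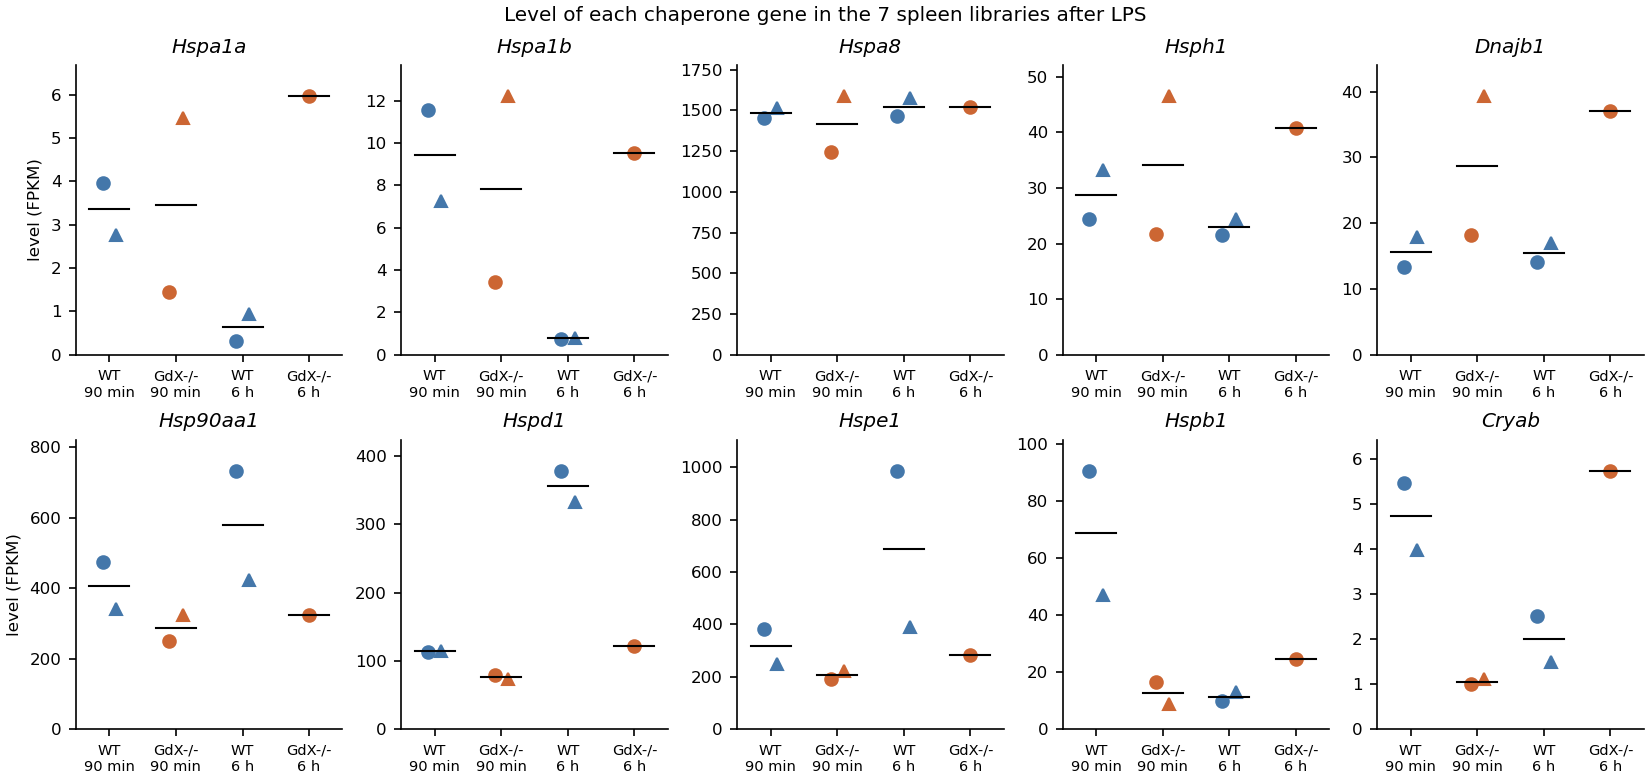
Level of each of the 10 genes in FPKM (linear axes from 0, a separate scale per gene) in each library. Circles are replicate 1, triangles replicate 2, black lines group means, blue wild type and orange GdX-deficient. Hspa8 sits between 1242 and 1586 FPKM throughout, whereas Hspa1a and Hspa1b stand below 1 FPKM only in the 2 wild-type libraries at 6 h.

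Mean levels over the 7 libraries lay between the 17.6% and 99.3% marks of the 11378 tested genes, which all had a mean of at least 1 FPKM. Hspa8 was at 1479 FPKM, above 99.3% of the tested genes, and its lowest library lay above the highest library of every other gene of the set. Hsp90aa1 (410 FPKM), Hspe1 (386 FPKM) and Hspd1 (173 FPKM) followed, each overlapping the next in its range over libraries. Hsph1 (30.4 FPKM), Hspb1 (30.1 FPKM) and Dnajb1 (22.4 FPKM) also overlapped one another. Hspa1b (6.50 FPKM), Cryab (3.05 FPKM) and Hspa1a (2.98 FPKM) were lowest and overlapped as well, with no library of Hspa1b reaching the lowest library of Dnajb1. The stress-inducible HSP70 genes thus stood among the lower 35.9% of tested genes, and constitutive Hspa8 was 125 to 1993 times the level of Hspa1b in a library.

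Hspa1a and Hspa1b, the inducible HSP70 pair, were near the floor in wild type at 6 h and clearly measured elsewhere. Hspa1b was at 11.57 and 7.24 FPKM in wild type at 90 min, at 3.41 and 12.20 FPKM in GdX-deficient spleen at 90 min, at 0.75 and 0.79 FPKM in wild type at 6 h and at 9.52 FPKM in the 6 h GdX-deficient library. Hspa1a was at 3.96 and 2.76, 1.45 and 5.45, 0.32 and 0.95, and 5.96 FPKM in the same order. Both wild-type libraries at 6 h lay below every other library for both genes. The same 2 libraries had the lowest sums of 6 B-cell markers (468 and 469 FPKM against 1155 to 2010 FPKM) and of 7 red pulp macrophage markers (289 and 302 FPKM against 562 to 690 FPKM), and the part of these cells in the levels of the pair was not tested.
These 2 libraries held only about 44 and 46 fragments of Hspa1b and about 20 and 59 of Hspa1a, so the ratio of the pair is imprecise there. The sum of the pair was 15.5 and 10 FPKM in wild type at 90 min, 4.86 and 17.7 FPKM in GdX-deficient spleen at 90 min, 1.07 and 1.74 FPKM in wild type at 6 h and 15.5 FPKM in the 6 h GdX-deficient library. The sum, which does not depend on how fragments were split between the pair, was also lowest in the 2 wild-type libraries at 6 h.

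From 90 min to 6 h in wild type, Hspa1b fell by 2.52 on the log2(FPKM + 1) scale (SE 0.48) and passed the threshold of the fit over all genes, and Hspa1a differed by -1.43 (SE 0.44) without passing it. Hspa1a did pass when either 90 min library of the GdX-deficient group or replicate 2 of wild type at 6 h (-1.71) was left out, with the length trend removed, with the replicate block and on the 4 wild-type libraries alone. The 6 h GdX-deficient library differed from the 90 min mean of its genotype by 0.46 for Hspa1b and 0.81 for Hspa1a, with no test. Between genotypes at 90 min the libraries overlapped for both genes, with differences of -0.42 (SE 0.48) and -0.12 (SE 0.44), GdX-deficient minus wild type. At 6 h the GdX-deficient library was higher by 2.57 for Hspa1b and 2.12 for Hspa1a, again with no test because it is a single library. With a pseudocount of 0.1 in place of 1 these differences were 3.47 and 3.19.
Replicate 1 of the GdX-deficient group at 90 min stood apart from its partner in these genes. Without it the 90 min differences between genotypes turned to 0.38 for Hspa1b and 0.58 for Hspa1a, and the time difference of Hspa1b in GdX-deficient spleen turned to -0.33. Without a filter on low values, the call of Hspa1b over time in wild type was lost at the same difference.

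Hspa8, the constitutive HSP70 that does most cytosolic folding in unstressed cells, showed no comparable pattern. It was at 1449.89 and 1516.33 FPKM in wild type and 1242.37 and 1586.29 FPKM in GdX-deficient spleen at 90 min, and at 1464.46 and 1574.51 FPKM in wild type and 1520.37 FPKM in GdX-deficient spleen at 6 h. The GdX-deficient library at 6 h lay between the wild-type ones. Its differences were -0.08 (SE 0.29) by genotype at 90 min, 0.00 by genotype at 6 h and 0.03 (SE 0.29) by time in wild type, and their sign depended on scaling, with 0.18 at 90 min and 0.48 at 6 h after quantile normalization.

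Dnajb1 and Hsph1 are the partners of HSP70, the former a J-domain protein that delivers clients and the latter an HSP110 nucleotide exchange factor. Dnajb1 was at 13.39 and 17.90 FPKM in wild type and 18.13 and 39.28 FPKM in GdX-deficient spleen at 90 min, and at 14.11 and 16.93 FPKM in wild type and 37.10 FPKM in GdX-deficient spleen at 6 h. Every GdX-deficient library lay above every wild-type library, though replicate 1 at 90 min exceeded the highest of them by little. The difference was 0.75 (SE 0.37) at 90 min and 1.21 at 6 h, and 0.94 (SE 0.28) with time as a covariate. The 90 min difference rested largely on replicate 2 of the GdX-deficient group, being 0.21 without that library and 1.29 without replicate 1. Over time in wild type it was -0.00 (SE 0.37).
Hsph1 was at 24.48 and 33.19 FPKM in wild type and 21.69 and 46.52 FPKM in GdX-deficient spleen at 90 min, and at 21.54 and 24.45 FPKM in wild type and 40.73 FPKM in GdX-deficient spleen at 6 h. Its genotypes overlapped at 90 min (0.15, SE 0.36) and not at 6 h (0.80). For both partners the 2 highest libraries were replicate 2 of the GdX-deficient group at 90 min and the GdX-deficient library at 6 h.

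The same 2 libraries had the highest summed neutrophil markers, though not the highest level of each marker. The summed level of 8 neutrophil genes, each detected in at least 1 library, was 4817 FPKM in replicate 2 of the GdX-deficient group at 90 min and 2534 FPKM in the 6 h GdX-deficient library, against 782 to 1268 FPKM in the other 5 libraries. S100a8 and S100a9, abundant calcium-binding proteins of neutrophils, made up most of that sum, and Ly6g, which defines neutrophils, was at 11.56 and 7.0 FPKM in these libraries against 1.09 to 2.94 FPKM in the others. The granule genes Camp, Ltf and Ngp went otherwise in the 6 h GdX-deficient library, at 15.17, 5.08 and 40.27 FPKM against 14.76 to 120.21, 4.25 to 18.99 and 48.19 to 112.57 FPKM in the other libraries. Replicate 2 of the GdX-deficient group at 90 min and the 6 h GdX-deficient library also had the highest B-cell sums, at 2010 and 1727 FPKM. The other 5 libraries were at 468 to 1466 FPKM. Not every B-cell marker was highest there, with Pax5 at 86.86 FPKM in the 6 h GdX-deficient library against 111.5 and 103.58 FPKM in wild type at 90 min. The part of neutrophils or B cells in the levels of Dnajb1, Hsph1, Hspa1a and Hspa1b was not tested. Immediate early genes listed as markers of tissue handling, 9 in all, summed to 1240 and 1507 FPKM in wild type at 90 min. The sum was 1192 FPKM in replicate 1 of the GdX-deficient group at 90 min and 336 to 554 FPKM elsewhere. All but Atf3 and Dusp1, Fos and Egr1 among them, were highest in the same libraries as the sum. Atf3 was at 43.29 and 59.09 FPKM in wild type at 90 min and at 45.84 and 56.47 FPKM at 6 h. Every mouse received LPS, so handling and LPS cannot be told apart in these genes, and their part was not tested either.

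**Figure D2:**
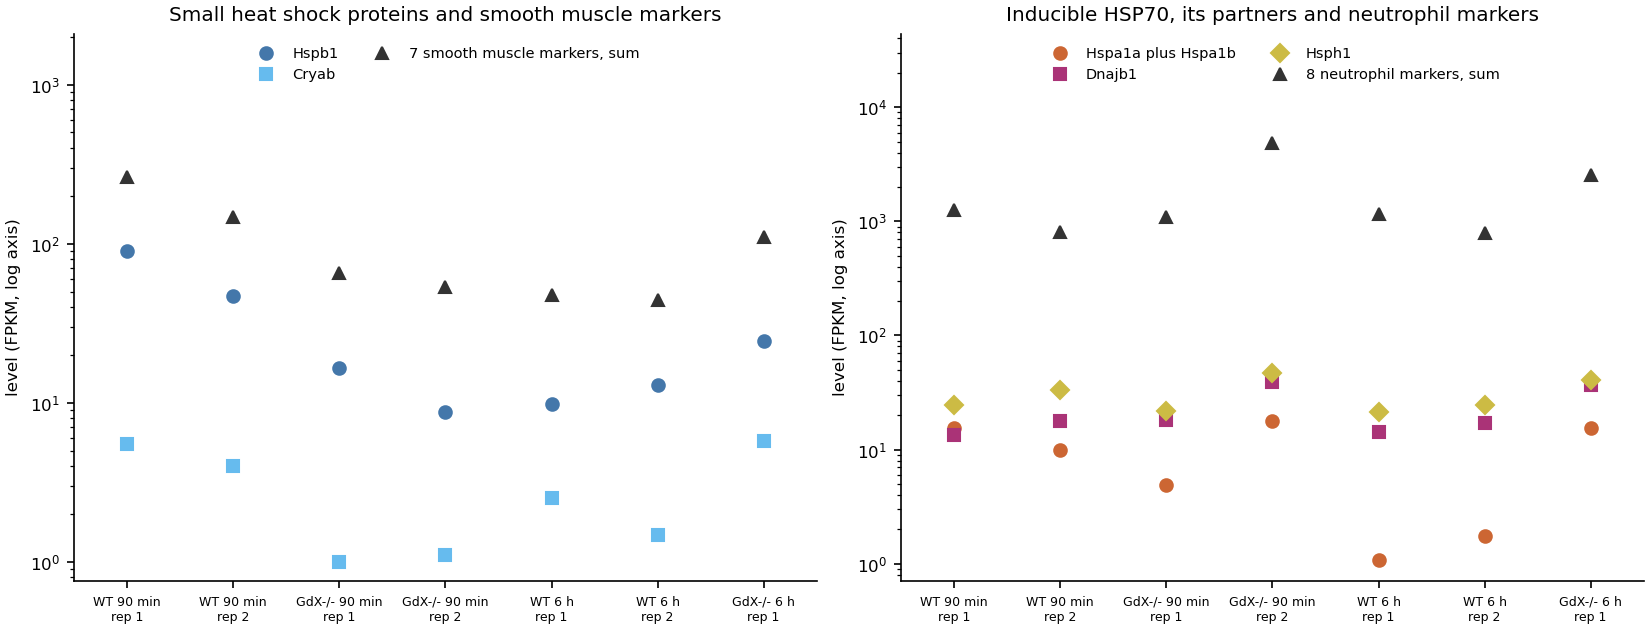
Left, levels of Hspb1, Cryab and the sum of 7 smooth muscle markers. Right, the sum of Hspa1a and Hspa1b, Dnajb1, Hsph1 and the sum of 8 neutrophil markers. Each point is 1 library, in FPKM on a log axis. Hspb1 and the smooth muscle sum are highest in the 2 wild-type libraries at 90 min, and Dnajb1, Hsph1 and the neutrophil sum are highest in replicate 2 of the GdX-deficient group at 90 min and in the 6 h GdX-deficient library.

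Hsp90aa1 encodes the inducible cytosolic HSP90. It was at 473.31 and 341.10 FPKM in wild type and 249.47 and 324.48 FPKM in GdX-deficient spleen at 90 min, and at 734.25 and 424.19 FPKM in wild type and 323.17 FPKM in GdX-deficient spleen at 6 h. All 3 GdX-deficient libraries lay below all 4 wild-type ones, narrowly at 90 min, where the nearest were 324.48 and 341.10 FPKM. The difference was -0.50 (SE 0.33) at 90 min, -0.79 at 6 h and -0.61 (SE 0.26) with time as a covariate, none past a threshold. Leaving out 1 library gave -0.73 to -0.26 at 90 min. At 6 h the difference was -0.39 without replicate 1 of wild type and -1.18, beyond 2-fold, without replicate 2. Its constitutive partner Hsp90ab1 was 1.75 to 4.16 times as abundant in a library.

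Hspd1 and Hspe1, the mitochondrial HSP60 and HSP10, share the promoter stretch printed above and followed 1 pattern. Hspd1 was at 112.47 and 114.89 FPKM in wild type and 79.48 and 72.89 FPKM in GdX-deficient spleen at 90 min, and at 378.78 and 333.34 FPKM in wild type and 122.06 FPKM in GdX-deficient spleen at 6 h. Hspe1 was at 381.94 and 248.69, 192.32 and 220.63, 987.36 and 387.72, and 282.25 FPKM in the same order. At each time the GdX-deficient libraries lay below both wild-type libraries for both genes, and both genes were highest in wild type at 6 h.
In wild type Hspd1 rose by 1.64 (SE 0.24) from 90 min to 6 h, past the threshold, and Hspe1 was higher by 1.00 (SE 0.42), which did not pass. In wild type over time Hspe1 depended on the 6 h pair, at 0.33 with replicate 1 left out and at 1.68, then past the threshold, with replicate 2 left out, and it also passed with the length trend removed (1.02). In GdX-deficient spleen the 6 h library lay above both 90 min libraries, with differences from their mean of 0.67 for Hspd1 and 0.45 for Hspe1. By genotype the differences were -0.57 (SE 0.24) and -0.58 (SE 0.42) at 90 min, and -1.53 and -1.13 at 6 h. The value of Hspe1 at 6 h depended on which wild-type library was used: without replicate 1 of wild type it was -0.46, and without replicate 2 it was -1.80.
The ratio of Hspe1 to Hspd1 was 2.17 to 3.40 in 6 libraries and 1.16 in replicate 2 of wild type at 6 h. Hspe1 has a short transcript of 774 bases against 2423 for Hspd1, and the difference between these wild-type replicates followed transcript length over all genes with a Spearman coefficient of -0.591. The part of transcript length in this ratio was not tested.

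Hspb1 (HSP27) and Cryab (alphaB-crystallin), small heat shock proteins that are abundant in muscle, were ordered differently again. Hspb1 was at 90.57 and 47.12 FPKM in wild type and 16.60 and 8.81 FPKM in GdX-deficient spleen at 90 min, and at 9.79 and 12.95 FPKM in wild type and 24.62 FPKM in GdX-deficient spleen at 6 h. Cryab was at 5.48 and 3.98, 1.00 and 1.11, 2.52 and 1.48, and 5.75 FPKM in the same order. For both genes the GdX-deficient libraries were below both wild-type libraries at 90 min and above both at 6 h.
At 90 min Hspb1 differed by -2.34 (SE 0.39) and Cryab by -1.47 (SE 0.29), and neither passed the threshold over all genes. Fitted on the 4 libraries of that comparison alone, both passed at the same differences, as they did when either wild-type library at 6 h was left out. Hspb1 also passed without replicate 2 of the wild-type 90 min pair (-2.80). At 6 h the GdX-deficient library was higher by 1.06 for Hspb1 and 1.19 for Cryab, which became 0.83 and 0.57 after quantile normalization. With 1 wild-type library left out, Hspb1 was at 0.88 to 1.25 and Cryab at 0.94 to 1.44. Each was under 2-fold at the lower value, Hspb1 without replicate 1 and Cryab without replicate 2. In wild type Hspb1 fell by 2.44 (SE 0.39) from 90 min to 6 h, past the threshold except without a filter on low values, and Cryab differed by -0.94 (SE 0.29). The difference of Cryab passed without replicate 1 of the wild-type 6 h pair (-1.20), with the length trend removed and with the replicate block. Cryab rested on about 18 and 19 fragments in the GdX-deficient libraries at 90 min.

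Markers of smooth muscle, which lines the capsule and vessels of the spleen, were summed beside these 2 genes. Their sum, like Hspb1, was highest in the wild-type libraries at 90 min, whereas Cryab was highest in the 6 h GdX-deficient library. The sum of 7 markers was 263 and 148 FPKM in wild type and 65.4 and 53.5 FPKM in GdX-deficient spleen at 90 min, and 47.7 and 44.5 FPKM in wild type and 110.7 FPKM in GdX-deficient spleen at 6 h. No marker of the list was at 0 in every library. Of its genes, Acta2 and Tagln were also highest in wild type at 90 min, with Acta2 at 42.96 and 19.94, 8.75 and 5.98, 6.25 and 7.49, and 12.45 FPKM, and Tagln at 141.99 and 75.68, 29.48 and 22.02, 24.07 and 19.14, and 43.11 FPKM. Des, another marker of the list, peaked instead in the 6 h GdX-deficient library (31.04 FPKM), above the wild-type values of 25.25 and 20.69 FPKM at 90 min. Fibroblast markers, 7 genes, were at 61.9 and 43.1, 19.2 and 18.5, 21.03 and 29.2, and 42.98 FPKM in the same order. Skeletal and cardiac muscle markers, of which 6 of 8 were listed, reached 6.16 FPKM at most and 4 were under 1 FPKM in every library. The part of smooth muscle or fibroblasts in the levels of Hspb1 and Cryab was not tested.

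Over the 10 genes, the comparison of genotypes at 90 min called none. Limma called 2 of 11378 genes (0.0176%) at an adjusted p under 0.05, and 862 genes in all, 3 of the 10 among them, had an unadjusted p below 0.05, a count from which nothing is read because the 10 were chosen with these values known. Wild-type and GdX-deficient libraries stood apart without overlap for 6 of the 10 genes, against 47.5% of all genes, 1 of them (Dnajb1) higher and 5 (Hsp90aa1, Hspd1, Hspe1, Hspb1 and Cryab) lower in GdX-deficient spleen. The median difference of the 10 was -0.46, against 0.07 over all genes. Leaving out 1 library at a time gave medians of the 10 from -0.68 to -0.11, the latter without replicate 1 of the GdX-deficient group (0.18 over all genes). Rescaling without globin genes moved the median of all genes to 0.25 and that of the 10 to -0.26 and turned the differences of Hspa1a (0.04) and Hspa8 (0.13), while the 6 genes that stood apart kept their direction under each scaling tried.
With time as a covariate limma called none of the 10 either, against 5 of all genes (0.0439%), and 3071 genes in all, 4 of the 10 among them, had an unadjusted p below 0.05. For 4 genes (Dnajb1 higher, Hsp90aa1, Hspd1 and Hspe1 lower) the genotypes stood apart in the same direction at both times, against 32.1% of all genes, a share near the background. This fit depended on replicate 1 of the GdX-deficient group at 90 min: without it 1674 genes were called, among them Hspa1a and Dnajb1 higher and Hspd1 lower.

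At 6 h, 7 of the 10 genes were at least 2-fold from the wild-type mean and beyond both wild-type libraries, against 22.0% of all genes. Of these, 5 were higher (Hspa1a, Hspa1b, Dnajb1, Hspb1 and Cryab), against 16.5% of all genes, and 2 were lower (Hspd1 and Hspe1), against 5.47%. The median difference was 0.93 over the 10 genes and 0.32 over all genes (0.40 and 0.19 at a mean of at least 5 FPKM, where Hspa1a and Cryab are not tested), so part of the balance between directions goes with scaling. After quantile normalization the median of all genes was -0.01 and 4 of the 10 were counted (Hspa1a, Hspa1b and Dnajb1 higher, Hspd1 lower), against 16.2% of all genes, with 52.9% of all counted genes higher in place of 75.1%. Rescaling without globin genes moved the median of all genes to 0.55 and that share to 89.0%.

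**Figure D3:**
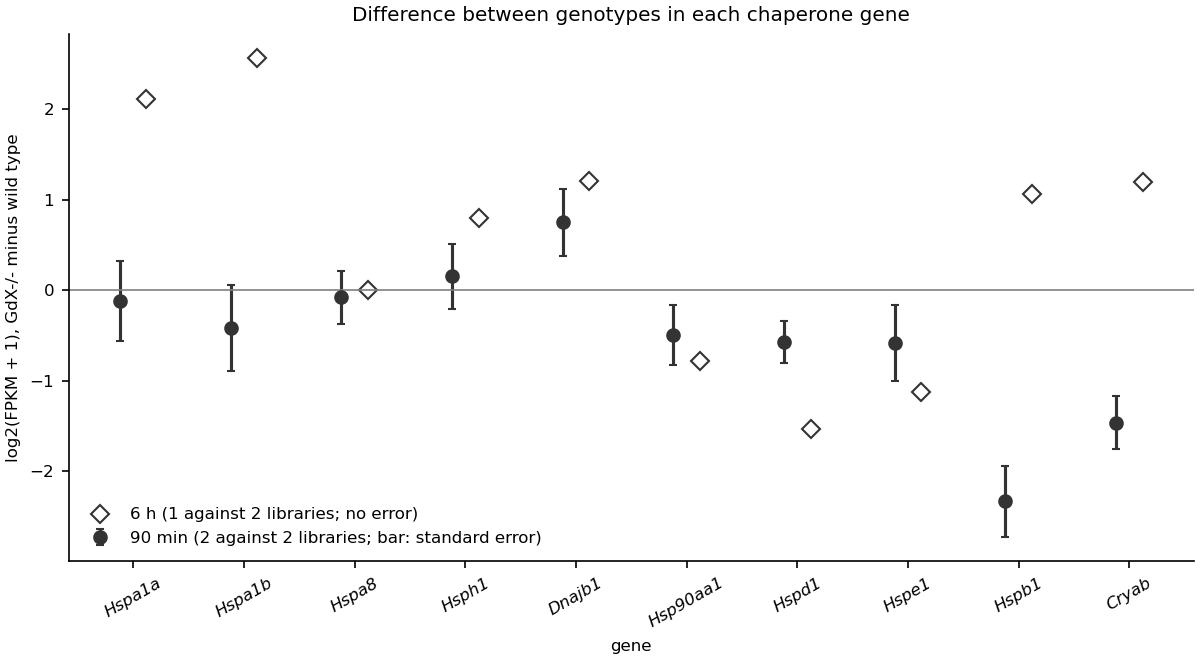
Difference between genotypes for each gene on the log2(FPKM + 1) scale, GdX-deficient minus wild type. Filled circles are 90 min with standard errors and open diamonds 6 h, where 1 library allows no error. Hspb1 and Cryab lie below 0 at 90 min and above 0 at 6 h, and Hsp90aa1, Hspd1 and Hspe1 lie below 0 at both times.

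Over time in wild type, limma called 3 of the 10 genes against 10.7% of all genes. Hspd1 was the 1 higher at 6 h, against 4.39% of all genes, and Hspa1b and Hspb1 were the 2 lower, against 6.32%. All 3 were called under each scaling tried, although the share of higher genes among all calls was 41.0%, and 27.0% after rescaling without globin genes. The libraries of the times did not overlap for 7 of the 10, against 57.9% of all genes. The median difference was -0.15 over the 10 genes and 0.05 over all, and between -0.36 and -0.01 for the 10 with 1 library left out. With genotype as a covariate Hspd1 alone was called (1.25, SE 0.24), against 5.44% of all genes, and the call was lost without a filter on low values (1.25). Each of 3 wild-type libraries also cost it the call when left out: replicate 2 of the 6 h pair (1.20) and replicates 1 (1.15) and 2 (1.16) of the 90 min pair.
In GdX-deficient spleen all 10 differences between the times were above 0. Cryab alone reached 2-fold outside both 90 min libraries (1.72), against 5.73% of all genes. Beyond 2-fold were also Hspa1a (1.51) and Hspa1b (1.25) without replicate 2 at 90 min, and Hspb1 (1.38) without replicate 1. The median was 0.46 over the 10 genes and 0.25 over all genes, and this order turned without replicate 1 at 90 min, to 0.05 and 0.12. Without that library the differences of Hspa1b, Hspa8, Hsph1, Hsp90aa1 and Dnajb1 fell under 0. The comparisons of genotype and of time share libraries, so their values are set side by side and not as independent evidence.

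The rest of the chaperone network was described with 72 further genes in 11 lists, of which 71 were listed and 64 tested. Like the members, these lists were written with earlier results known. Hsf1, the transcription factor that binds heat shock elements, was at 14.83 and 24.95 FPKM in wild type and 23.30 and 27.68 FPKM in GdX-deficient spleen at 90 min, and at 17.95 and 31.84 FPKM in wild type and 26.84 FPKM in GdX-deficient spleen at 6 h. The genotypes overlapped at both times, with a difference of 0.38 (SE 0.35, limma adjusted p = 0.683) at 90 min, and RNA says nothing of HSF1 activity.

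Over time in wild type, 9 of the 64 genes rose (14.1%, against 4.39% of all genes) and 3 fell (4.7%, against 6.32%), and the list's median difference was 0.50 against 0.05 over all genes. These counts depended on single wild-type libraries and on scaling: 1 rose and 0 fell when either replicate of wild type at 90 min was left out, 4 rose and 1 fell after rescaling without globin genes, and 3 rose and 1 fell with no filter on low values. Over all genes, the rescaling called 1.68% higher and 4.54% lower, and the fit with no filter 1.32% and 2.22%. Removing the length trend gave 17 of the 64 higher (against 10.3% of all genes) and 6 lower (against 11.8%), and the replicate block 20 higher (against 9.43%) and 6 lower (against 11.2%). Those that rose included the mitochondrial HSP70 Hspa9, which takes up imported proteins and passes them to HSP60, from 94.70 and 96.28 to 315.48 and 313.05 FPKM (1.71, SE 0.26, limma adjusted p = 0.00637). Clpp, the proteolytic subunit of a mitochondrial protease, rose by 1.38 (SE 0.27, limma adjusted p = 0.0151), the HSP70 regulator Hspbp1 by 1.23 (SE 0.26, limma adjusted p = 0.0201) and the cochaperone Cacybp by 1.16 (SE 0.27, limma adjusted p = 0.0269). The 3 that fell were the collagen chaperone Serpinh1, by 1.24 (SE 0.25, limma adjusted p = 0.0166) and the J-domain genes Dnaja4, by 1.34 (SE 0.29, limma adjusted p = 0.0204) and Dnajb4, by 1.24 (SE 0.34, limma adjusted p = 0.0460).
Of the 8 subunits of TRiC, the cytosolic chaperonin that folds actin and tubulin, 2 rose and all 8 differences were above 0, from 0.65 to 1.06. With genotype as a covariate 3 of the 64 were called (4.7%, against 5.44% of all genes, a share near the background), all higher at 6 h: Hspa9 (1.25, SE 0.26, limma adjusted p = 0.0285), Clpp (1.09, SE 0.23, limma adjusted p = 0.0292) and Hsp90ab1 (0.96, SE 0.23, limma adjusted p = 0.0424). This count was 0 with no filter on low values and 0 when any 1 of 4 libraries was left out (either wild-type one at 90 min, wild-type replicate 2 at 6 h, or GdX-deficient replicate 2 at 90 min). It was 1 when wild-type replicate 1 at 6 h was left out, and 12 (9 higher, against 4.38% of all genes, and 3 lower, against 6.2%) without the 6 h GdX-deficient library.

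**Figure D4:**
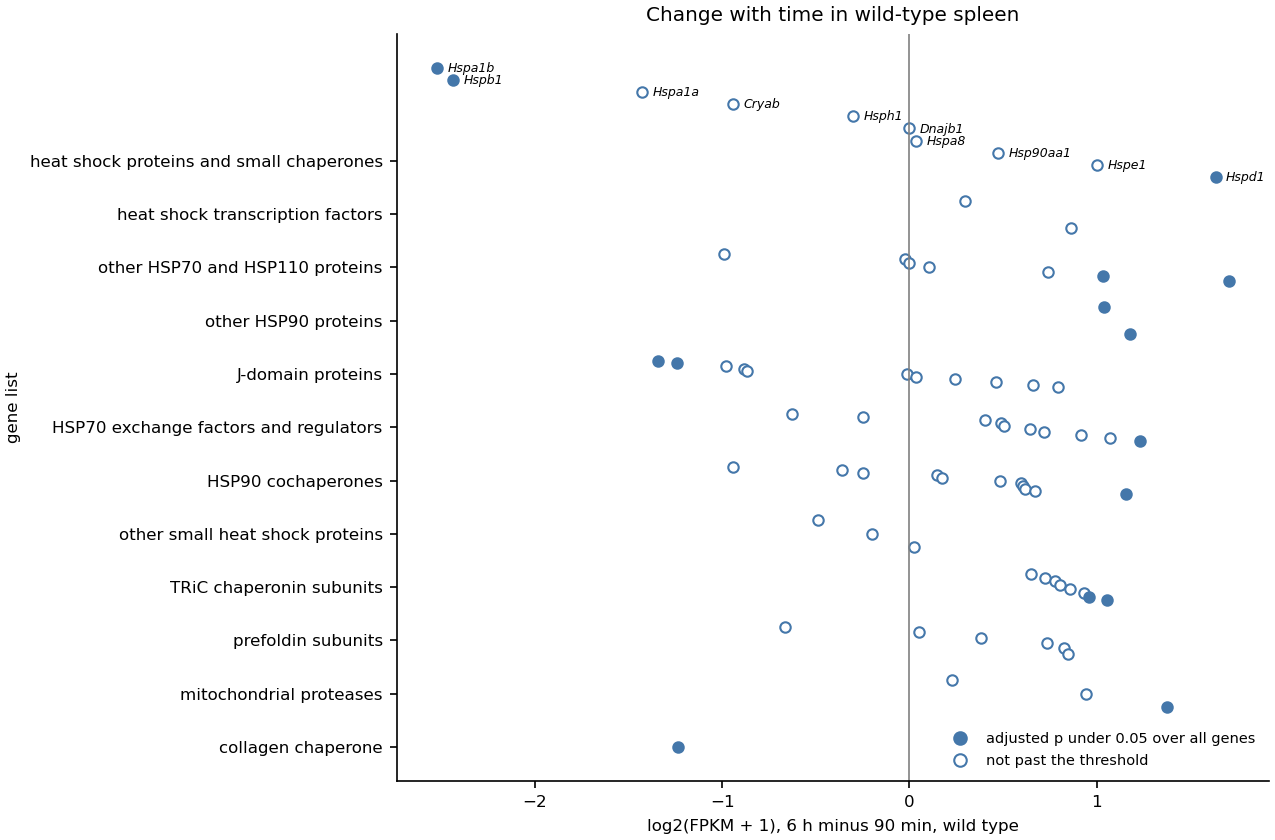
Difference between 6 h and 90 min in wild type on the log2(FPKM + 1) scale, 1 point per gene. The top row holds the 10 genes described here, with names, and the other rows the 11 lists of further chaperone genes. Filled points passed the threshold over all genes. Hspd1 (1.64) stands at the right edge near Hspa9 (1.71), and Hspa1b and Hspb1 stand furthest to the left.

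By genotype at 90 min limma called none of the 64 genes, and 7 (10.9%, against 7.6% of all genes) had an unadjusted p under 0.05. It called 1, lower (against 0.817% to 0.861% of all genes), when fitted on the 4 libraries compared or when either wild-type library at 6 h was left out. Their median was -0.26. The genes that stood furthest apart without overlap were Serpinh1 (-1.24, SE 0.25, limma adjusted p = 0.520), the small heat shock protein Hspb8 (-0.89, SE 0.29, limma adjusted p = 0.573) and the prefoldin subunit Pfdn2 (-0.74, SE 0.33, limma adjusted p = 0.621). Hspb8 was near the floor, at 2.35 and 1.16 FPKM in wild type and 0.55 and 0.35 FPKM in GdX-deficient spleen at 90 min. With time as a covariate limma also called none, though without replicate 1 of the GdX-deficient group at 90 min it called 9 lower (against 4.1% of all genes) and 2 higher (against 10.6%). With all libraries, 23 of the 64 (35.9%, against 27.0% of all genes) had an unadjusted p under 0.05, and Hspa9 (-1.08, SE 0.26), Dnaja4 (1.06, SE 0.26) and Pfdn2 (-0.96, SE 0.26) stood furthest apart.
Serpinh1, which helps collagen fold in the endoplasmic reticulum, was at 41.04 and 40.78 FPKM in wild type and 17.78 and 15.82 FPKM in GdX-deficient spleen at 90 min, and at 16.06 and 17.51 FPKM in wild type and 48.46 FPKM in GdX-deficient spleen at 6 h. Like Hspb1 and Cryab, it was lower in GdX-deficient than in wild-type libraries at 90 min and higher in the single one at 6 h, as were the fibroblast and smooth muscle sums given above. The groups were otherwise not in 1 order.
At 6 h, 11 of the 64 were at least 2-fold lower in the GdX-deficient library and outside both wild-type ones (17.2%, against 5.47% of all genes), and 4 were higher (6.2%, against 16.5%). After quantile normalization 6 were lower (against 7.63% of all genes) and 4 higher (against 8.57%), and after rescaling without globin genes 3 were lower (against 3.09%) and 5 higher (against 25.1%). With the length trend removed 16 were lower (against 8.16%) and 4 higher (against 8.86%). Among the lower were Hspa9 (-1.77), Clpp (-1.09) and 6 of the 8 TRiC subunits, of which Cct8 differed most (-1.26), and the higher were Hspa4l, Dnaja4, Dnajb4 and Serpinh1 (1.48 to 1.82). The median of the 64 was -0.42, where that of the 10 genes was 0.93. In GdX-deficient spleen over time 2 of the 64 were counted (3.1%, against 5.73% of all genes), both higher at 6 h, Serpinh1 (1.48) and Hspb8 (1.19). Hspb8 was low throughout, at 2.3 FPKM at 6 h against 0.55 and 0.35 FPKM at 90 min.

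The genes with the profiles most like those of the set were found by Pearson's r over the 7 libraries, as a measure of likeness only, among 7828 genes with a mean of at least 5 FPKM. The libraries share their groups, so no p-value is given. For the mean profile of Hspa1a, Hspa1b, Hsph1, Dnajb1 and Hsp90aa1, from which Hsp90aa1 itself departs (r of -0.42 to -0.53 with each of the other 4), these were Gpd1l (0.972), Cxxc5 (0.970), R3hdm4 (0.968), Bcl11b (0.968) and Pbxip1 (0.967). Cxxc5, for one, was at 13.47 and 15.23 FPKM in replicate 2 of the GdX-deficient group at 90 min and in the 6 h GdX-deficient library, against 1.65 to 5.02 FPKM in the other libraries. For Hspd1 with Hspe1 they were Mrpl13 (0.998), a protein of the mitochondrial ribosome, Ube2m (0.997), Tamm41 (0.997), Nudcd2 (0.997) and the prefoldin subunit Pfdn6 (0.995). Mrpl13 was at 121.6 and 74.59 FPKM in wild type at 6 h against 33.38 to 53.74 FPKM in the other libraries.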

How the data were processed

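Per the labels' protocols, the RNA of 7 spleens was sequenced on the BGISEQ-500 platform. Per the file headers, the authors deposited 1 FPKM value per gene and library. HISAT, HISAT2 2.0.4, Bowtie2, RSEM and the build GRCm38.p5 are named, without roles, per the submitters' processing notes. Deposited values were used as log2(FPKM + 1). Genes averaging 1 FPKM or more, 11378 in all, were fitted with limma 3.58.1 in R 4.3.3 (empirical Bayes with a trend, two-sided, Benjamini-Hochberg over all genes, threshold 0.05), a scale that understates changes of low genes. A fit of 4 groups gave genotype at 90 min and time in wild type, and additive fits of genotype and time used all 7 libraries. The 6 h GdX-deficient library is single, so comparisons with it counted genes at least 2-fold from the pair's mean and outside both libraries.

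Fragment numbers were estimated from the steps between low FPKM values (70.4% to 76.4% of those values came out whole), since counts were not used here. The tested comparisons, in their main setting only, were also run on simulated data with noise independent between genes. That noise held no deviations shared by replicates and no length trend, so the run cannot say how the fits behave with them. Tables were made with Python 3.11.15 and pandas 2.3.3, and transcripts aligned with Biopython 1.88. The members and all gene and marker lists were chosen with earlier results of these data known. All 10 members were named whatever their values. Of the further chaperone genes, up to 4 higher and 4 lower with the smallest p per tested comparison were named, or the 3 standing furthest apart without overlap where none passed. Genes counted at 6 h, Serpinh1 and single markers were named after their values were seen. The results for smooth muscle, neutrophil, fibroblast, muscle, B-cell, macrophage and handling markers stand in the report, and the other marker sums among the observations. The alternatives were another pseudocount, other filters on low values, quantile normalization, rescaling without globin genes, removal of a transcript-length trend, fits of only the libraries compared, the replicate number as a block, and leaving out each library.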

Additional observations from a re-analysis of the deposited data

Results flagged for a closer look

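Hspa1a went in opposite directions over time in the genotypes: lower at 6 h than at 90 min in both wild-type libraries and higher in the GdX-deficient library than in both at 90 min. The time differences were 2.24 apart on the log2(FPKM + 1) scale, GdX-deficient minus wild type. The time difference of Hspa1a in GdX-deficient spleen was 0.81, and 0.11 without replicate 1 or 1.51 without replicate 2 of its 90 min pair. Hspb1 and Cryab did so too, with gaps of 3.40 and 2.66. The same gaps, 3.40 for Hspb1 and 2.66 for Cryab, stand between the genotype differences at 6 h and 90 min, since both libraries of GdX-deficient spleen were below wild type at 90 min and the single one was above it at 6 h. These differences were not tested, because they rest on 1 library at 6 h. Of all 11378 tested genes, 9.14% had such opposite time differences and 7.79% such opposite genotype differences.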

How the results depend on the processing

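Of the 728 recomputed differences of single members, 671 counted as the same. Where there was a test this means only that the call was kept, and size was not checked. Where there was none it means that the size stayed within the spread. Of the rest, 23 passed the threshold newly, 6 lost it and 28 without a test moved by more than the spread. Of the 728, 35 had the other sign, none of them a called one. Genes called by genotype at 90 min were 2, and 181 on the 4 libraries alone (2 members), 0 after removal of the length trend and 2 to 183 without 1 library (0 to 2 members). With time as a covariate the count of 5 ranged from 2 to 1674 (0 to 3 members). Over time in wild type the count of 1218 was 635 without a filter (1 member), 708 rescaled without globin genes, 2480 without the length trend (6 members) and 450 to 1774 without 1 library (3 to 5 members). With genotype as a covariate the count of 619 was 104 without a filter (0 members), 327 rescaled, 1199 without the length trend and 154 to 1204 without 1 library (0 to 3 members). At 6 h the count of 2501 was 1887 to 3830 without 1 wild-type library (5 to 7 members), and 4 members were counted after quantile normalization. In GdX-deficient spleen over time 652 became 1033 with a pseudocount of 0.1 (3 members), 421 at a mean of 5 FPKM (0 members, Cryab not being tested) and 585 to 1336 without 1 library (2 to 3 members). The cause was not tested.

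The replicate number as a block gave 2 genes by genotype at 90 min, 12 with time as a covariate, 2345 over time in wild type (5 members, with Hspa1a and Cryab besides) and 765 with genotype as a covariate. What the replicate numbers stand for is not settled by these values. Same-numbered libraries of wild type at 90 min and at 6 h deviated together, with r of 0.77. For GdX-deficient spleen at 90 min r was -0.12 with wild type at 90 min and 0.08 with wild type at 6 h. The main fit of time in wild type did not model this, and the block is only a check. With 2 libraries a group, and 1 in GdX-deficient spleen at 6 h, the number of mice limits every comparison, and a low gene such as Cryab also its 18 fragments.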

Other observations

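Among the other marker lists, red cell precursor genes summed to 1035 and 1233 FPKM in the GdX-deficient libraries at 90 min against 554 and 628 FPKM in wild type, and to 611 FPKM against 200 and 273 FPKM at 6 h. The 2 libraries with the highest sum were the 2 lowest in Hspd1. Cycling-cell markers summed to 77.0 and 77.9 FPKM in wild type at 6 h, where Hspd1 was highest, and to 130 to 206 FPKM elsewhere. T-cell markers summed to 116 and 90.6 FPKM in wild type at 6 h against 188 to 265 FPKM elsewhere, endothelial markers to 57.7 to 108 FPKM, pancreas markers to 2.64 to 8.82 FPKM and fat markers to 4.41 to 50.99 FPKM. The part of these cells in any result was not tested.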
